A study of Homo sapiens with 21 samples.

Results

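Aldehyde dehydrogenases are enzymes that oxidize aldehydes to carboxylic acids with NAD+ or NADP+. Of the 42339 genes in the count table, 10 are described here: ALDH1A1, ALDH1A2, ALDH1A3, ALDH1B1, ALDH1L2, ALDH2, ALDH3A1, ALDH3A2, ALDH4A1 and ALDH7A1. They were taken by name, with earlier results of these data known, and 9 further ALDH genes of the table were kept as a separate list. RNA was sequenced from BT-549, an established triple-negative breast cancer (TNBC) cell line with wild-type BRCA1, in 21 libraries that form 7 groups of 3. 2D cells were monolayers in medium with serum, and 3D cells were mammospheres at serial passage 6 in low-attachment plates, which enrich for cells with self-renewal capacity; the third group, 3D cells + GO-203, received 0.75 umol/L of GO-203, a cell-penetrating peptide directed against a cysteine motif in the cytoplasmic part of MUC1-C. The other 4 groups were mammospheres of cells carrying a doxycycline (DOX)-inducible shRNA: tet-MUC1shRNA at passage 6 and tet-MYCshRNA at passage 8, each with 0.1% DMSO (vehicle) or 500 ng/ml DOX. Each line carried a single shRNA vector and was selected with puromycin, no library came from DOX-treated cells with a control shRNA, and the effects of DOX itself and of silencing therefore cannot be told apart here. The labels give the replicates of a group only as numbers, so p-values measure the spread between these samples, which may be technical.

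The family works in separate places in the cell. ALDH1A1, ALDH1A2 and ALDH1A3 are cytosolic enzymes that oxidize retinaldehyde to retinoic acid, the ligand of the retinoic acid receptors, and the ALDH activity measured in stem cell assays of breast cancer is largely credited to ALDH1A1 and ALDH1A3. ALDH2 and ALDH1B1 are mitochondrial enzymes that clear acetaldehyde, ALDH1L2 is the mitochondrial formyltetrahydrofolate dehydrogenase, ALDH3A1 and ALDH3A2 act on medium- and long-chain aldehydes from lipids, and ALDH4A1 and ALDH7A1 take part in the breakdown of proline and lysine.

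Sequences before the annotated starts are given for the members that changed most on MYC silencing among those with an entry, since MYC with its partner MAX binds the E-box CACGTG. RefSeq promoter sequences of GRCh38.p14 matched 7 of the 10 members and gave 10 starts, and the 250 bases before each start were searched on both strands for CACGTG and for CCAAT, the binding motif of NF-Y; both are in capitals below, CCAAT as ATTGG where it lies on the other strand, and the motifs share no base. The ALDH1A1 sequence is the minus strand of chr9:72953054-72953303, that of ALDH1A3 the plus strand of chr15:100879581-100879830 and that of ALDH1B1 the plus strand of chr9:38392452-38392701. For ALDH3A2, only 30 bases that hold the E-box and the CCAAT before its start at position 19648751, on the plus strand of chr17:19648700-19648729, are shown.
ALDH1A1: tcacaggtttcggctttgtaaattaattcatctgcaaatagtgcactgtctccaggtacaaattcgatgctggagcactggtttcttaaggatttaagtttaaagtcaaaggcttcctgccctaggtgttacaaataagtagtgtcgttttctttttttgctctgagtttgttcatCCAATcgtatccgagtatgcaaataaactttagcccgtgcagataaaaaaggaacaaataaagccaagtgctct
ALDH1A3: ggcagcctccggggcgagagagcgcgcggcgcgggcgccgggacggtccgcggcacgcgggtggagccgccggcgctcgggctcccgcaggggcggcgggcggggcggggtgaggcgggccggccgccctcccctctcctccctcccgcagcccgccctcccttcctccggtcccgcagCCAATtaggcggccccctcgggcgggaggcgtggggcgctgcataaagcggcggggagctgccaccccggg
ALDH1B1: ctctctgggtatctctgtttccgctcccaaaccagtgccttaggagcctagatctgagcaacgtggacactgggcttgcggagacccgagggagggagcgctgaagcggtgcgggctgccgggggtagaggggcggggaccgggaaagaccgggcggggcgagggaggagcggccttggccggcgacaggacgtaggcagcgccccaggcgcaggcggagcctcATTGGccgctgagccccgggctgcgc
ALDH3A2: ctgtCACGTGggccgcccaggCCAATaggg
CACGTG stood in 1 of the 10 windows, that of the ALDH3A2 start at position 19648751, where it began 47 bases before the start, against 6.34% of 35116 windows of the same length. The window of the other ALDH3A2 start, at position 19648136, held neither motif. CCAAT stood in 6 of the 10 windows, against 32% of all. GC content was 38.4% in the ALDH1A1 window, 70.4% in that of ALDH1B1 and 82.4% in that of ALDH1A3. ALDH1L2, ALDH2 and ALDH3A1 had no entry in the promoter table.

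Library totals ran from 38026597 to 99751717 counts, and values are given as CPM, counts scaled to a common library size after TMM normalization over the 21 libraries. Counting intervals would cover counting error only, and 70.4% of counts from 1 to 10 were even, against 52.4% of those above 100, and the cause was not tested. Of the markers checked, VIM, a mesenchymal filament gene, averaged 1080 to 2480 CPM in the 7 groups. The labels name breast epithelium as the tissue, but the epithelial markers EPCAM and KRT19 were at or under 0.0471 CPM in each group mean, and CDH1, KRT8 and KRT18 reached at most 1.45, 1.36 and 0.898 CPM. The hormone receptor genes ESR1 and PGR averaged at most 0.974 and 0.0384 CPM, and ERBB2, which is not amplified in TNBC, averaged 20.1 to 36.1 CPM. MUC1 fell from 89.4 ± 9.79 to 21.6 ± 1.48 CPM (SD, n = 3) with DOX in tet-MUC1shRNA mammospheres (log2 fold change -2.06, SE 0.0744, edgeR adjusted p = 2.97e-15). MYC fell from 418 ± 32.6 to 275 ± 32.9 CPM (SD, n = 3) with DOX in tet-MYCshRNA mammospheres (log2 fold change -0.62, SE 0.0801, edgeR adjusted p = 9.05e-05).

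Levels of different genes were compared as CPM per kb of the canonical transcript. Summed over the 10 members, this level was 108 ± 5.67 in 2D cells, 88.2 ± 2.36 in 3D cells and 78.8 ± 0.8 with GO-203 (SD, n = 3). It was 79 ± 1.16 and 78.6 ± 6.17 in vehicle- and DOX-treated tet-MUC1shRNA mammospheres, and 108 ± 5.2 and 163 ± 7.29 in vehicle- and DOX-treated tet-MYCshRNA mammospheres (SD, n = 3). The DOX-treated tet-MYCshRNA libraries, at 156 to 170 CPM per kb, did not overlap with any other group. The leading member was ALDH1L2 in 2D cells with 38.4% of the sum, ALDH1B1 in 3D cells with 41.8%, with GO-203 with 40.5% and in the vehicle-treated tet lines with 34.7% and 35.5%, and ALDH3A2 in the DOX-treated tet lines with 29.9% on MUC1 silencing and 46.2% on MYC silencing. These sums depend on the gene length used, because ALDH3A2 has 15331 bases of merged exons but a canonical transcript of 3703 bases. With merged exon length, a setting added after seeing the data, the sums per kb were 69.2 and 73.7 in vehicle- and DOX-treated tet-MYCshRNA mammospheres, and ALDH1B1 led in DOX-treated tet-MUC1shRNA mammospheres.

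**Figure D1:**
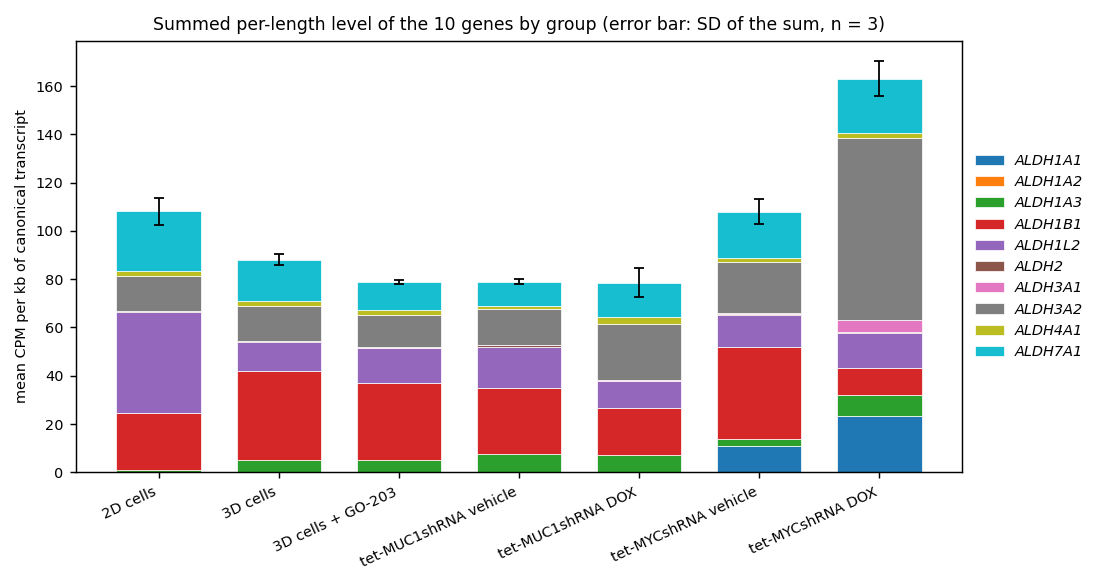
Stacked bars give the mean CPM per kb of canonical transcript (vertical axis, from 0) of the 10 members in each of the 7 groups, and the error bar is the SD of the sum over 3 libraries. ALDH1B1 is the tallest segment in 3D cells, and ALDH3A2 is the tallest in DOX-treated tet-MYCshRNA mammospheres, where the sum reaches 163.

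The plot of levels by library shows that the members had no common order of groups. ALDH1A1 and ALDH3A1 were highest in DOX-treated tet-MYCshRNA mammospheres, and ALDH3A2 and ALDH1A3 were also highest there, without overlap with the next group. ALDH1L2 was highest in 2D cells, without overlap with the next group, whereas ALDH7A1 and ALDH2 were highest in 2D cells with overlap. ALDH1B1 was highest in vehicle-treated tet-MYCshRNA mammospheres and overlapped with 3D cells, and ALDH4A1 was highest in DOX-treated tet-MUC1shRNA mammospheres without overlap. ALDH1A2 (chr15:57953424-58497866) was listed at 0 counts in 13 libraries, had no value in the 3 GO-203 libraries and was at 4 counts or fewer in the other 5, and it was too low to be tested in any comparison.

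**Figure D2:**
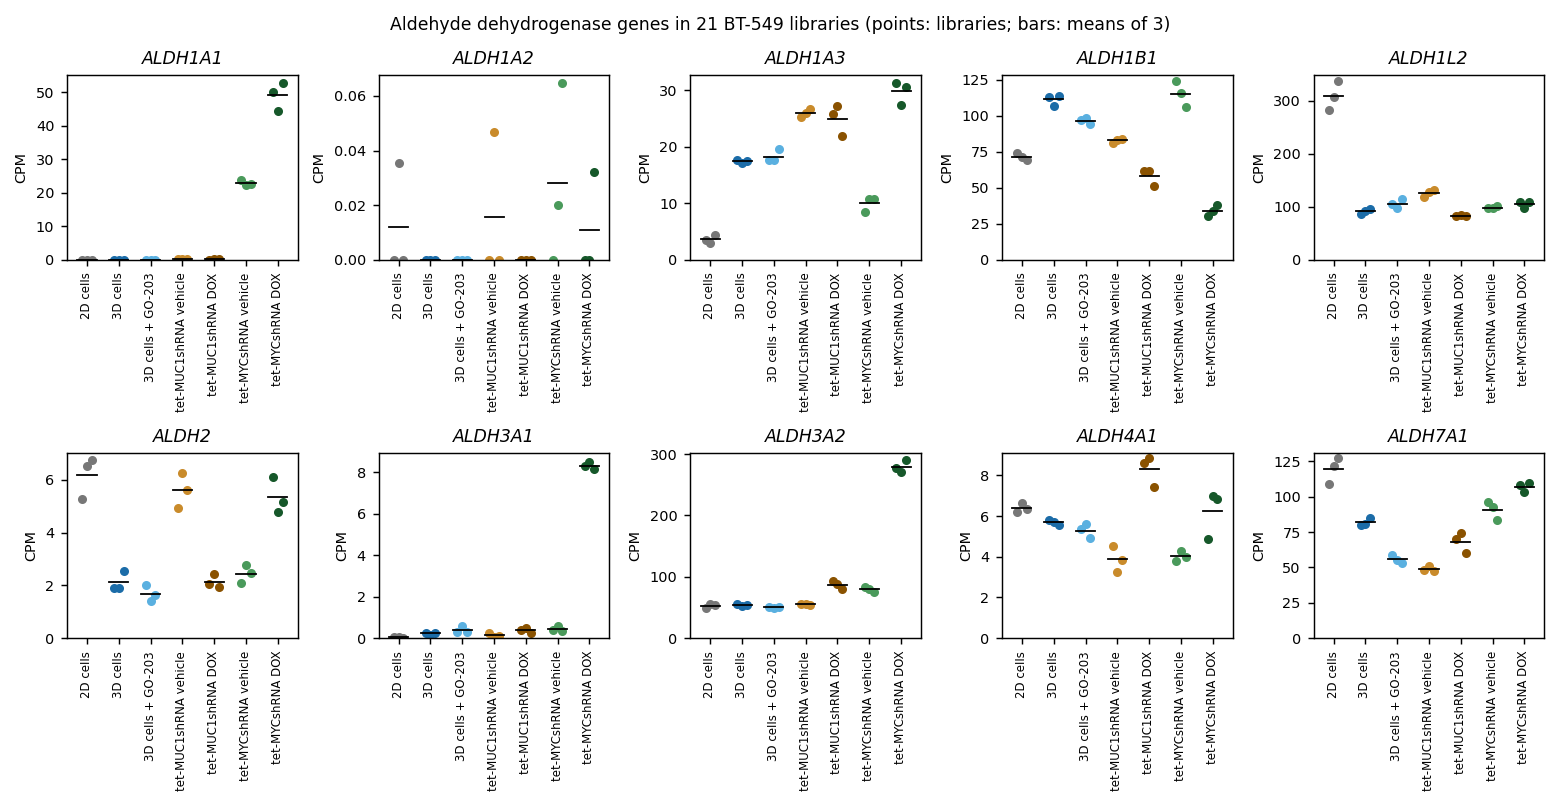
Each panel plots 1 member as CPM (vertical axis, linear, from 0, a scale of its own per panel) in the 7 groups (horizontal axis), with points for the 3 libraries of a group and a bar for their mean. ALDH3A1 and ALDH3A2 stand apart in DOX-treated tet-MYCshRNA mammospheres, at 8.32 and 279 CPM on average, and ALDH1A1 is near 0 in the tet-MUC1shRNA line and drawn at 0 in the 2D, 3D and GO-203 groups, where its cells in the table are empty.

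The 3D vs. 2D comparison asks how mammospheres at passage 6 differ from the monolayer they came from. ALDH1A3 rose 5-fold in 3D cells, ALDH1B1 rose 1.62-fold, and ALDH1L2, ALDH2 and ALDH7A1 fell. Of the 7 members with enough counts to be tested, 2 rose and 3 fell at an adjusted p below 0.1 (edgeR's quasi-likelihood test with Benjamini-Hochberg adjustment over all genes tested, as for every adjusted p given here). Of all 19190 genes tested, 63.7% passed, 32% upward and 31.7% downward. With a log2 fold change beyond 1.5 (2.83-fold) in addition, 1 member rose and 1 fell, against 16.2% of all genes tested, 6.9% upward and 9.29% downward. The medium, the passages and the growth format differed together between these groups and cannot be told apart.

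Among the retinaldehyde dehydrogenases, ALDH1A3 (chr15:100877714-100916626) was at 3.5, 2.95 and 4.39 CPM in the 2D libraries and at 17.6, 17.2 and 17.5 CPM in the 3D libraries. All 3D libraries lay above all 2D libraries, and the log2 fold change was 2.32 (SE 0.13, edgeR adjusted p = 1.7e-10). ALDH1A3-AS1, a gene on the opposite strand, covers 32.1% of the ALDH1A3 exon bases and had 41 to 318 counts, and the strand setting of the counting is not given in the sources used here. ALDH1A1 (chr9:72900671-73080442), the best known retinaldehyde enzyme in stem cell assays, had no value in the table for the 9 libraries of 2D cells, 3D cells and GO-203, and these empty cells were read as 0. The table left out genes by blocks of libraries, and every gene listed for the 2D and 3D libraries had at least 1 count among them. The reading as 0 rests on that, and the floor of 3 counts per library used with it corresponds to at most 0.0769 CPM.

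Of the mitochondrial acetaldehyde enzymes, ALDH1B1 (chr9:38392702-38398661) was at 74, 71.3 and 69 CPM in 2D cells and at 113, 107 and 114 CPM in 3D cells. The 3D libraries were all higher, with a log2 fold change of 0.70 (SE 0.0596, edgeR adjusted p = 3.6e-08). ALDH2 (chr12:111766887-111817532) went the other way, with 5.29, 6.51 and 6.76 CPM in 2D cells and 1.89, 1.92 and 2.53 CPM in 3D cells. It fell 2.8-fold (log2 fold change -1.48, SE 0.169, edgeR adjusted p = 1.12e-06), just short of the fold threshold, and it passed that threshold at -1.57 without 2D cells replicate 1 and at -1.64 without 3D cells replicate 3. When vehicle-treated tet-MUC1shRNA mammospheres stood for the 3D cells, the ALDH2 difference from 2D cells was -0.10 and was not called (edgeR adjusted p = 0.52), and the ALDH1B1 difference was 0.26 and was still called. ALDH1L2 (chr12:105019784-105107643), the folate enzyme, was at 283, 307 and 337 CPM in 2D cells and at 86.8, 92.2 and 95.9 CPM in 3D cells. It fell 3.24-fold, again without overlap (log2 fold change -1.70, SE 0.0665, edgeR adjusted p = 1.72e-12), and by 1.25 on the log2 scale, short of the fold threshold, under the same substitution.

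Of the enzymes of lipid and amino acid aldehydes, ALDH7A1 was called between 2D and 3D cells, ALDH3A2 and ALDH4A1 were not, and ALDH3A1 had too few counts for the test. ALDH7A1 (chr5:126531200-126595362), which oxidizes aminoadipate semialdehyde from lysine, was at 109, 122 and 127 CPM in 2D cells and at 79.8, 80.4 and 85.1 CPM in 3D cells. It fell 1.41-fold (log2 fold change -0.49, SE 0.0627, edgeR adjusted p = 4.08e-06), and by 1.25 on the log2 scale when vehicle-treated tet-MUC1shRNA mammospheres stood for the 3D cells. Because 4 pseudogenes carry its name and how multimapped reads were treated is not given, reads of ALDH7A1 and of these copies may not be told apart in its counts. ALDH3A2 (chr17:19648136-19685760), the fatty aldehyde dehydrogenase that is defective in Sjogren-Larsson syndrome, was at 53.1 ± 3.42 CPM in 2D cells and 54.2 ± 2.15 CPM in 3D cells (SD, n = 3), with a log2 fold change of 0.09 (SE 0.0633, edgeR adjusted p = 0.267). ALDH4A1 (chr1:18871430-18902724), the enzyme that completes the breakdown of proline to glutamate, was at 6.4 ± 0.225 and 5.69 ± 0.125 CPM (SD, n = 3), with a log2 fold change of -0.12 (SE 0.121, edgeR adjusted p = 0.433), although the 3D libraries were all lower. ALDH3A1 (chr17:19737984-19748943), which is abundant in cornea and is inducible elsewhere, had 2, 4 and 0 counts in 2D libraries and 13, 9 and 18 in 3D libraries and was removed by the filter on low counts. Without that filter its log2 fold change was 2.62 (SE 0.854, edgeR adjusted p = 0.00776). In the 4 fits without a library in which ALDH3A1 was tested, this value ran from 2.02 without 2D cells replicate 3 to 3.47 without 2D cells replicate 2. ALDH3A1 was called in each, but it met the filter there only through the 3D libraries, so these calls are no independent support. Markers of other cell types moved in this comparison too: PECAM1 averaged 0.0118 CPM in 2D and 6.62 CPM in 3D cells, and PTPRC 1.28 and 0.0621 CPM. Of the epithelial markers, CDH1 averaged 1.45 CPM in 2D cells and was at 0 in 3D cells, while KRT8 rose 2.85-fold from 0.179 to 0.496 CPM (edgeR adjusted p = 0.00972). Of the mesenchymal markers, CDH2 fell from 451 to 50.2 CPM, FN1 rose from 460 to 6590 CPM, ZEB1 rose 2.2-fold and VIM 1.09-fold. The part of these markers in the ALDH differences was not tested, and in bulk RNA fewer cells of a kind and less RNA per cell cannot be told apart.

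**Figure D3:**
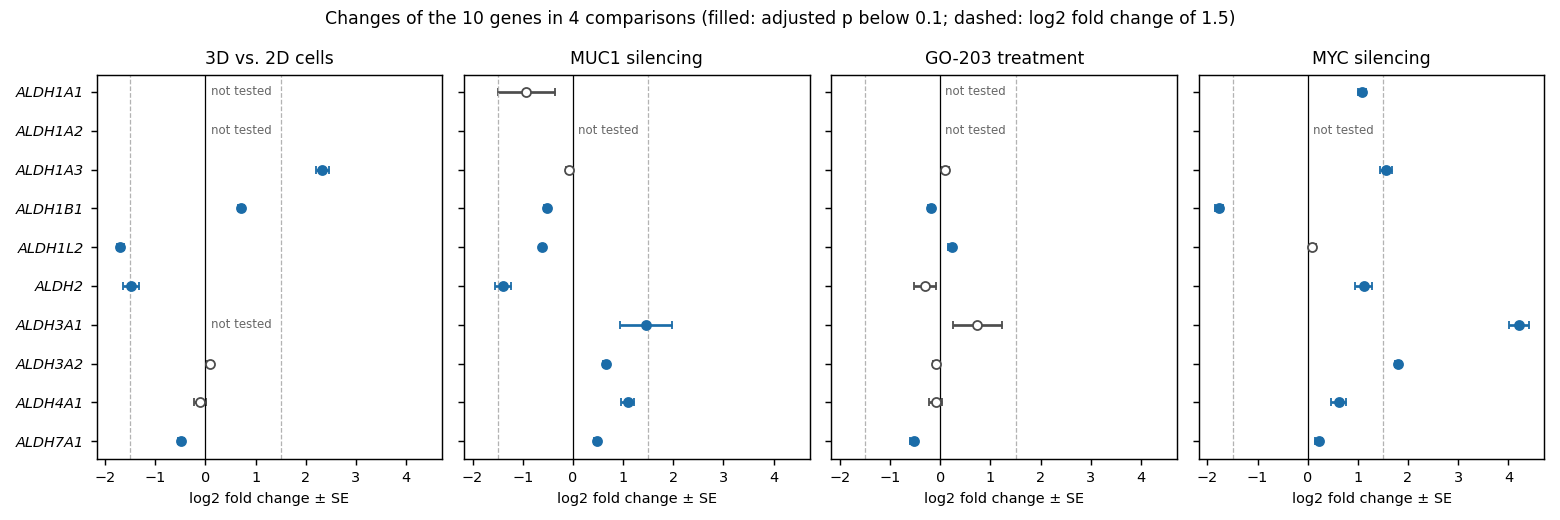
Points give the log2 fold change of each member (horizontal axis) with its SE in 4 comparisons (panels), filled where the edgeR adjusted p was below 0.1. The 3D vs. 2D and GO-203 panels share the 3D libraries. The MYC silencing panel holds the widest range, from -1.77 for ALDH1B1 to 4.21 for ALDH3A1.

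MUC1 silencing moved the members both ways and by less than the fold threshold. ALDH3A1, ALDH4A1, ALDH3A2 and ALDH7A1 rose, and ALDH2, ALDH1L2 and ALDH1B1 fell. These are 4 rises and 3 falls among 9 members tested, where 62.2% of all 19220 genes tested passed, 30.7% upward and 31.6% downward. With the fold threshold, 0 of the 9 members passed, against 8.82% of all genes tested, while ALDH3A1 passed it without tet-MUC1shRNA vehicle replicate 1 (1.97) or DOX replicate 3 (1.62). DESeq2 also gave 0. At an unadjusted p below 0.05, the same 7 members passed, against 60.5% of all genes tested.

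ALDH2 was at 4.93, 6.25 and 5.63 CPM with vehicle and at 2.05, 2.43 and 1.94 CPM with DOX. The DOX libraries were all lower, and ALDH2 fell 2.63-fold (log2 fold change -1.39, SE 0.151, edgeR adjusted p = 9.58e-08). ALDH1L2 was at 119, 128 and 131 CPM with vehicle and at 83.5, 83.8 and 81.9 CPM with DOX, and it fell 1.53-fold (log2 fold change -0.61, SE 0.0482, edgeR adjusted p = 7.41e-10). ALDH1B1 was at 81.4, 83.5 and 84.1 CPM with vehicle and at 61.4, 61.6 and 51.1 CPM with DOX, again without overlap, and it fell 1.44-fold (log2 fold change -0.53, SE 0.0553, edgeR adjusted p = 5.82e-08).

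ALDH4A1 was at 4.51, 3.27 and 3.83 CPM with vehicle and at 8.61, 8.83 and 7.43 CPM with DOX. It rose 2.13-fold, with all DOX libraries higher (log2 fold change 1.09, SE 0.127, edgeR adjusted p = 2.36e-07). ALDH3A2 was at 55.8, 55.1 and 53.9 CPM with vehicle and at 92.8, 88.2 and 80.2 CPM with DOX, and it rose 1.57-fold (log2 fold change 0.65, SE 0.0504, edgeR adjusted p = 5.23e-10). ALDH7A1 was at 48.5, 50.8 and 47.2 CPM with vehicle and at 69.9, 74.3 and 60.3 CPM with DOX, a 1.39-fold rise without overlap (log2 fold change 0.47, SE 0.0593, edgeR adjusted p = 7.65e-07). ALDH3A1 was counted 9, 3 and 6 times with vehicle and 22, 33 and 12 times with DOX. Its rise (log2 fold change 1.46, SE 0.522, edgeR adjusted p = 0.0221) rested on these low counts, and it was not called without tet-MUC1shRNA vehicle replicate 2 (log2 fold change 1.14, edgeR adjusted p = 0.118).

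The retinaldehyde dehydrogenases were not called. ALDH1A3 was at 25.3, 26 and 26.8 CPM with vehicle and at 25.8, 27.2 and 22 CPM with DOX, and the groups overlapped (log2 fold change -0.07, SE 0.0695, edgeR adjusted p = 0.412). With library size alone as the scaling its sign turned, to 0.10 (edgeR adjusted p = 0.239). ALDH1A1 had 10, 16 and 20 counts with vehicle and 2, 14 and 14 with DOX (log2 fold change -0.93, SE 0.566, edgeR adjusted p = 0.172). Without tet-MUC1shRNA DOX replicate 3 it passed the threshold at -1.49 (edgeR adjusted p = 0.0754), whereas without DOX replicate 1, the library with 2 counts, it was -0.43 (edgeR adjusted p = 0.527). With all 21 libraries in a single fit, ALDH1A1 was called at -0.99 (edgeR adjusted p = 0.0451). The epithelial markers KRT8 and KRT18 averaged 0.0414 and 0.0376 CPM with vehicle and 1.36 and 0.898 CPM with DOX, CDH1 averaged 0.0302 and 0.313 CPM, and EPCAM was at or below 0.0366 CPM in both. Of the mesenchymal markers, CDH2 rose from 11.8 to 75.1 CPM and VIM 1.13-fold, while ZEB1 fell from 320 to 121 CPM and FN1 1.42-fold. Of the markers of other cell types, PECAM1 fell from 4.01 to 3.02 CPM (1.34-fold, edgeR adjusted p = 0.0209), with all DOX libraries lower, and PTPRC averaged 0.0894 and 0.0823 CPM. The part of these markers in the ALDH differences was not tested.

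GO-203 treatment addresses the same MUC1-C protein with a peptide and shares its 3D control libraries with the 3D vs. 2D comparison. ALDH7A1 and ALDH1B1 fell and ALDH1L2 rose, each by less than 1.5-fold, and the other 5 members tested were not called. These are 1 rise and 2 falls among 8 members tested, where 24.1% of all 18488 genes tested passed, 11.1% upward and 12.9% downward. With the fold threshold, 0 members passed, against 0.757% of all genes tested, and DESeq2 also gave 0. At an unadjusted p below 0.05 were 3 members and 29.9% of all genes tested. MUC1 itself rose to 252 ± 14.3 CPM with GO-203 (SD, n = 3; log2 fold change 0.33, SE 0.0715, edgeR adjusted p = 0.00191).

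ALDH7A1 was at 59, 55.5 and 52.8 CPM with GO-203, all below the 79.8 to 85.1 CPM of the control 3D cells. It fell 1.45-fold (log2 fold change -0.53, SE 0.0611, edgeR adjusted p = 1.23e-06). ALDH1B1 was at 97, 98.5 and 94.1 CPM, all below the 107 to 114 CPM of 3D cells (log2 fold change -0.19, SE 0.0575, edgeR adjusted p = 0.0225). ALDH1L2 was at 105, 97.7 and 114 CPM, all above the 86.8 to 95.9 CPM of 3D cells (log2 fold change 0.22, SE 0.0641, edgeR adjusted p = 0.0167), but it was not called without 3D cells + GO-203 replicate 3 (log2 fold change 0.17, edgeR adjusted p = 0.127). ALDH1A3 was at 17.6, 17.6 and 19.6 CPM with GO-203 and overlapped with 3D cells (log2 fold change 0.09, SE 0.0786, edgeR adjusted p = 0.523). ALDH3A2 at 49.8 to 51.6 CPM lay below, and ALDH3A1 at 0.309 to 0.564 CPM above, all 3D libraries without being called. For the members not called, the log2 fold changes ran from -0.31 for ALDH2 (approximate 95% interval -0.73 to 0.12) to 0.73 for ALDH3A1 (approximate 95% interval -0.23 to 1.70).

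On MYC silencing ALDH3A1 rose 18.5-fold, ALDH3A2 3.48-fold, ALDH1A3 2.95-fold, ALDH2 2.16-fold and ALDH1A1 2.12-fold, while ALDH1B1 fell 3.42-fold. Of 9 members tested, 7 rose and 1 fell, where 58.5% of all 19951 genes tested passed, 30.3% upward and 28.1% downward. With the fold threshold, 4 members passed, 3 upward and 1 downward, against 10.5% of all genes tested, 7.06% upward and 3.39% downward. Without tet-MYCshRNA vehicle replicate 1, ALDH1A3 was at 1.44 and short of the fold threshold. The median log2 fold change was 1.08 over the 9 members and 0.01 over all genes tested. MUC1 rose from 69.4 ± 2.76 to 168 ± 29.9 CPM (SD, n = 3) in the same libraries.

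The lipid aldehyde enzymes rose most. ALDH3A1 was at 0.406, 0.57 and 0.323 CPM with vehicle, from 30, 57 and 20 counts, and at 8.29, 8.52 and 8.17 CPM with DOX, from 419, 491 and 506 counts. The groups were far apart (log2 fold change 4.21, SE 0.195, edgeR adjusted p = 7.37e-08), and by size of change ALDH3A1 ranked 111 among all genes tested. ALDH3A2 was at 83.6, 79.7 and 75 CPM with vehicle and at 278, 270 and 290 CPM with DOX (approximate 95% interval of the log2 fold change 1.68 to 1.92, edgeR adjusted p = 1.25e-08). CACGTG precedes only the ALDH3A2 start at position 19648751, and its part in this rise was not tested. Per kb of canonical transcript ALDH3A2 was at 75.4 and ALDH3A1 at 5.08 CPM on average in the DOX group, so the member with the larger fold stayed the lower of the pair.

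Among the retinaldehyde enzymes, ALDH1A3 was at 8.49, 10.7 and 10.8 CPM with vehicle and at 31.4, 27.4 and 30.7 CPM with DOX, a rise without overlap (log2 fold change 1.56, SE 0.122, edgeR adjusted p = 2.41e-06). ALDH1A1 was at 23.7, 22.2 and 22.7 CPM with vehicle and at 49.9, 44.5 and 52.6 CPM with DOX (log2 fold change 1.08, SE 0.0863, edgeR adjusted p = 2.81e-06). The tet-MYCshRNA line was the only one with ALDH1A1 above 1 CPM in any library. Their promoter windows, printed above, held CCAAT but no CACGTG.

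The mitochondrial acetaldehyde enzymes went opposite ways. ALDH1B1 was at 124, 116 and 106 CPM with vehicle and at 30.7, 33.8 and 38.2 CPM with DOX (log2 fold change -1.77, SE 0.0835, edgeR adjusted p = 8.26e-08). ALDH2 was at 2.11, 2.76 and 2.47 CPM with vehicle and at 6.13, 4.79 and 5.17 CPM with DOX (log2 fold change 1.11, SE 0.167, edgeR adjusted p = 0.000258). ALDH1L2 was at 97.9, 97.5 and 101 CPM with vehicle and at 110, 98.1 and 110 CPM with DOX and overlapped (log2 fold change 0.09, SE 0.0712, edgeR adjusted p = 0.31), although without tet-MYCshRNA DOX replicate 2 it was called at 0.15 (edgeR adjusted p = 0.0913).

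The amino acid enzymes rose least. ALDH4A1 was at 3.77, 4.29 and 3.99 CPM with vehicle and at 4.87, 6.99 and 6.85 CPM with DOX (log2 fold change 0.62, SE 0.153, edgeR adjusted p = 0.00626). ALDH7A1 was at 96.4, 92.8 and 83.6 CPM with vehicle and at 108, 103 and 110 CPM with DOX (log2 fold change 0.22, SE 0.0682, edgeR adjusted p = 0.0191). Both were higher in all DOX than in all vehicle libraries, but ALDH7A1 was not called without tet-MYCshRNA vehicle replicate 3 (log2 fold change 0.16, edgeR adjusted p = 0.129). Of the markers of other cell types, PECAM1 averaged 6.79 CPM with vehicle and 9.4 CPM with DOX, and PTPRC 0.0133 and 0.106 CPM. FN1 rose 2.37-fold, ZEB1 1.12-fold and CDH2 1.16-fold, VIM fell 1.13-fold, and the part of these markers in the ALDH differences was not tested.

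The effects of MUC1 and MYC silencing were compared as an interaction over the 12 tet libraries. ALDH2 fell with MUC1 silencing and rose with MYC silencing, a difference of -2.52 on the log2 scale (SE 0.224, edgeR adjusted p = 4e-08). ALDH3A1 and ALDH3A2 rose with both, and more with MYC silencing, by differences of -2.73 (SE 0.512, edgeR adjusted p = 0.000231) and -1.16 (SE 0.0793, edgeR adjusted p = 1.35e-09). ALDH1B1 fell with both and fell more with MYC silencing, a difference of 1.23 (SE 0.108, edgeR adjusted p = 3.41e-08). The effects on ALDH1A3 differed by -1.65 (SE 0.143, edgeR adjusted p = 3.01e-08), those on ALDH1A1 by -2.06 (SE 0.419, edgeR adjusted p = 0.000499) and those on ALDH1L2 by -0.72 (SE 0.085, edgeR adjusted p = 1.47e-06). ALDH4A1 and ALDH7A1 rose more with MUC1 silencing, by 0.46 (SE 0.207, edgeR adjusted p = 0.0775) and 0.24 (SE 0.0984, edgeR adjusted p = 0.059), and these calls were lost in 7 and 8 of the 12 fits that leave out a library. With the replicate number as a block, the ALDH4A1 difference was also not called (edgeR adjusted p = 0.107), and with library size alone that of ALDH7A1 was 0.44. In all, 9 of 9 members tested passed, 3 with the higher log2 fold change on MUC1 silencing and 6 with the lower, where 52.9% of 21585 genes did, 26% and 26.9%. The lines also differ in passage and in how far the target fell, which cannot be told apart from the target itself. MYC averaged 275 CPM in DOX-treated tet-MYCshRNA mammospheres, against 242 and 290 CPM in vehicle- and DOX-treated tet-MUC1shRNA mammospheres. MYC rose on MUC1 silencing (log2 fold change 0.25, SE 0.0431, edgeR adjusted p = 5.01e-05).

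**Figure D4:**
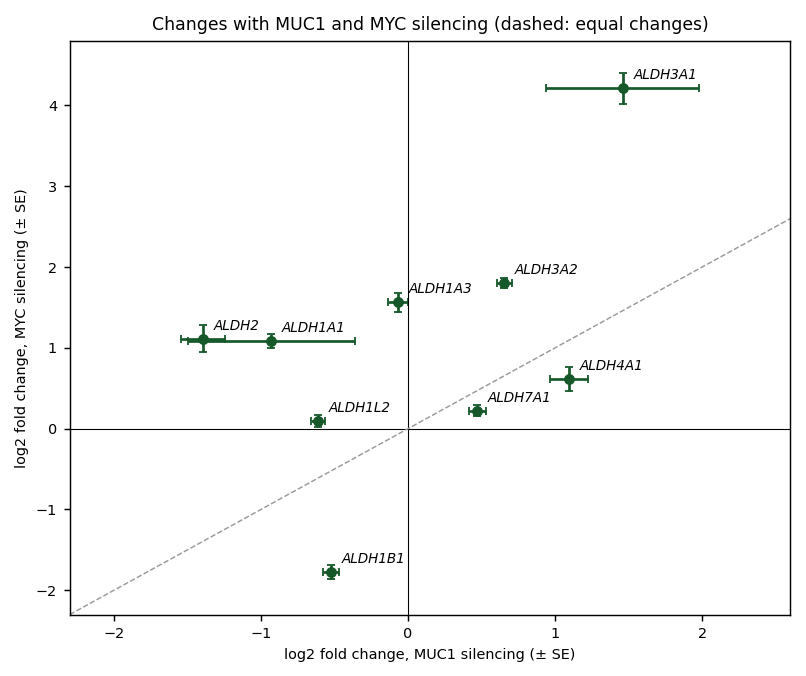
Each point is a member, with its log2 fold change and SE on MUC1 silencing (horizontal axis) and on MYC silencing (vertical axis), and the dashed line marks equal changes. ALDH2 lies at -1.39 and 1.11, in the upper left, ALDH3A1 lies at 1.46 and 4.21, in the upper right, and ALDH1B1 is the member below 0 on both axes.

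The effects of MUC1 silencing and GO-203 were compared in the same way. ALDH7A1 rose with MUC1 silencing and fell with GO-203, a difference of 1.01 on the log2 scale (SE 0.0902, edgeR adjusted p = 8.8e-10). ALDH1L2 fell with MUC1 silencing and rose with GO-203, a difference of -0.83 (SE 0.0827, edgeR adjusted p = 6.11e-09). The differences were 1.19 for ALDH4A1 (SE 0.176, edgeR adjusted p = 4.17e-06), 0.74 for ALDH3A2 (SE 0.0788, edgeR adjusted p = 1.85e-08), -1.08 for ALDH2 (SE 0.256, edgeR adjusted p = 0.00127) and -0.33 for ALDH1B1 (SE 0.0806, edgeR adjusted p = 0.00159), the last being -0.18 with library size alone. These 6 of 9 members passed, 3 in each direction, where 44.9% of 20829 genes did, 20.8% upward and 24.1% downward. ALDH1A3 and ALDH3A1 did not pass, with differences of -0.15 (SE 0.102) and 0.72 (SE 0.739), and ALDH1A1 had no estimable difference because its empty cells in both 3D groups were read as 0. The tet-MUC1shRNA line and the 3D cells also differ in vector, in DMSO or DOX, and in the levels of members before DOX or GO-203. These cannot be told apart from the way in which MUC1 was targeted.

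The vehicle-treated lines already differed before DOX, a comparison added after seeing the data. ALDH1A1 averaged 22.9 ± 0.752 CPM in vehicle-treated tet-MYCshRNA and 0.34 ± 0.0701 CPM in vehicle-treated tet-MUC1shRNA mammospheres (SD, n = 3), a log2 difference of 6.03 (SE 0.138, edgeR adjusted p = 1.16e-14). Against 3D cells, where its empty cells were read as 0, the level in the tet-MYCshRNA line was at least 375-fold higher, measured against the floor of 3 counts per library. ALDH1A3 was 2.62-fold lower and ALDH2 2.3-fold lower in vehicle-treated tet-MYCshRNA than in tet-MUC1shRNA mammospheres, while ALDH7A1 was 1.85-fold higher (log2 difference 0.89, SE 0.057, edgeR adjusted p = 1.13e-09). In all, 5 members were higher and 3 lower among 9 tested, where 66.8% of 19140 genes passed. With the fold threshold, ALDH1A1 and ALDH3A1 passed, against 10.6% of these genes, but ALDH3A1 was at 1.35 without tet-MUC1shRNA vehicle replicate 2 and at 1.41 without tet-MYCshRNA vehicle replicate 2. Vehicle-treated tet-MUC1shRNA mammospheres in turn had 2.6-fold more ALDH2 than 3D cells (log2 difference 1.38, SE 0.165, edgeR adjusted p = 2.04e-06) and 1.7-fold less ALDH7A1 (log2 difference -0.77, SE 0.0569, edgeR adjusted p = 6.96e-09). Here 4 members were higher and 3 lower among 9 tested, where 62.6% of 18409 genes passed. With the fold threshold ALDH1A1 alone passed, against 8.57% of these genes. It met the filter on low counts only through the tet-MUC1shRNA libraries, so its place among the members tested and called is no independent result. Its level was at least 5.58-fold higher than in 3D cells, measured against the floor and on the same reading of empty cells. Without 3D cells replicate 3, ALDH2 passed as well (1.52). Line, passage and vector cannot be told apart in the differences of the tet-MYCshRNA line. Vehicle-treated tet-MUC1shRNA mammospheres and 3D cells were both at passage 6. Line, vector, selection and the 0.1% DMSO listed for the former alone cannot be told apart there.

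The 9 other ALDH genes moved in part like the members. On MYC silencing all 6 tested passed, 5 upward, with a median log2 fold change of 0.78 against 0.01 over all genes tested, of which 58.5% passed and 30.3% upward, and ALDH6A1, a methylmalonate semialdehyde dehydrogenase, rose from 21.2 ± 1.19 to 58.1 ± 4.35 CPM (SD, n = 3; log2 fold change 1.44, SE 0.0838, edgeR adjusted p = 3.36e-07). ALDH18A1, which makes the proline precursor pyrroline-5-carboxylate and is therefore on the synthetic side of the pathway that ALDH4A1 breaks down, was the member of that list that fell (log2 fold change -0.68, SE 0.0618, edgeR adjusted p = 7.13e-06). On MUC1 silencing 1 of 7 rose and 3 fell, 57.1% called against 62.2% of all genes tested, with ALDH3B1 falling from 14.8 ± 1.22 to 6.59 ± 1.06 CPM (SD, n = 3; log2 fold change -1.16, SE 0.105, edgeR adjusted p = 6.07e-09). The list median was -0.47 there, against 0.02 over all genes tested. In 3D vs. 2D cells 2 of 6 rose and 3 fell (83.3% called against 63.7%, median -0.27 against -0.01), and with GO-203 1 of 6 rose (16.7% called against 24.1%), ALDH3B1 (log2 fold change 0.40, SE 0.0973, edgeR adjusted p = 0.00538), at a list median of 0.09 against 0.02. ALDH1L1 and ALDH3B2 were too low to be tested in any of the 4 comparisons.

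Genes upstream and downstream of the retinaldehyde dehydrogenases were followed as a list of 31 retinoid genes. In 3D vs. 2D cells 13 of 23 tested rose and 4 fell, 73.9% called against 63.7% of all genes tested, and DHRS9, a retinol dehydrogenase, rose from 0.0624 ± 0.0626 to 15 ± 0.862 CPM (SD, n = 3; edgeR adjusted p = 1.6e-13). BCO1, which cleaves carotene to retinaldehyde, averaged 3.41 CPM in 2D cells and was at 0 in 3D cells. On MUC1 silencing 11 of 24 rose and 8 fell (79.2% called against 62.2%), with GO-203 6 of 23 rose and 4 fell (43.5% against 24.1%), and on MYC silencing 14 of 24 rose and 5 fell (79.2% against 58.5%). The list had median log2 fold changes of 0.37 in 3D vs. 2D cells, 0.29 on MUC1 silencing, 0.10 with GO-203 and 0.61 on MYC silencing, against medians of all genes of -0.01, 0.02, 0.02 and 0.01 in the same order. TGM2, a transglutaminase gene induced by retinoic acid, rose on MUC1 silencing from 34.1 ± 1.87 to 165 ± 11 CPM (SD, n = 3; log2 fold change 2.27, SE 0.0526, edgeR adjusted p = 4.45e-18). It fell on MYC silencing from 146 ± 8.24 to 15.1 ± 2.4 CPM (SD, n = 3; log2 fold change -3.28, SE 0.104, edgeR adjusted p = 7.56e-09), in the comparison in which ALDH1A1 and ALDH1A3 rose, and with GO-203 from 5.75 ± 1.21 to 2.64 ± 0.274 CPM (SD, n = 3; log2 fold change -1.10, SE 0.168, edgeR adjusted p = 5.79e-05). RXRA, a receptor partner, fell on MUC1 silencing (log2 fold change -1.63, SE 0.095, edgeR adjusted p = 6.12e-12), RDH10, a retinol dehydrogenase, rose with GO-203 (log2 fold change 1.23, SE 0.0569, edgeR adjusted p = 1.6e-12), and RBP4, a retinol carrier, rose on MYC silencing from 0.118 ± 0.0568 to 3.19 ± 0.391 CPM (SD, n = 3; edgeR adjusted p = 8.84e-07).

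The partners of ALDH1L2 in mitochondrial folate metabolism moved otherwise than ALDH1L2 on MYC silencing, where 8 of the 10 genes fell and 1 rose (90% called against 58.5% of all genes tested) and the median log2 fold change was -0.89, against 0.01 over all genes. GLDC, the glycine decarboxylase, fell from 164 ± 7.53 to 39.5 ± 2.41 CPM (SD, n = 3; log2 fold change -2.07, SE 0.0663, edgeR adjusted p = 8.2e-09). In 3D vs. 2D cells, where ALDH1L2 fell, 5 of the 10 rose and 1 fell (60% called against 63.7%), and GLDC rose from 7.07 ± 0.88 to 159 ± 5.68 CPM (SD, n = 3; log2 fold change 4.55, SE 0.0876, edgeR adjusted p = 2.24e-16). On MUC1 silencing 4 rose and 3 fell (70% called against 62.2%), SHMT2, the mitochondrial serine hydroxymethyltransferase, by -1.04 on the log2 scale (SE 0.047, edgeR adjusted p = 9.28e-14), and with GO-203 3 fell (30% called against 24.1%). The list medians in these comparisons were 0.10 in 3D vs. 2D cells, 0.07 on MUC1 silencing and -0.07 with GO-203, against -0.01, 0.02 and 0.02 over all genes.

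The proline and glutamate enzymes around ALDH4A1 numbered 10 tested of 13. All 10 passed in 3D vs. 2D cells, 7 upward and 3 downward, and all 10 on MUC1 silencing, 3 upward and 7 downward, whereas 1 rose and 2 fell with GO-203 and 1 rose and 6 fell on MYC silencing, with medians of 0.49, -0.25, -0.06 and -0.50. The shares called were 100%, 100%, 30% and 70%, against 63.7%, 62.2%, 24.1% and 58.5% of all genes tested, whose medians were -0.01, 0.02, 0.02 and 0.01. GLUL, the glutamine synthetase, was the gene that rose on MYC silencing, from 866 ± 18.9 to 2990 ± 275 CPM (SD, n = 3; log2 fold change 1.77, SE 0.0667, edgeR adjusted p = 2.15e-08), and it fell on MUC1 silencing (log2 fold change -1.11, SE 0.0569, edgeR adjusted p = 7.69e-13). Of 7 lysine breakdown genes around ALDH7A1, 3 rose and 2 fell in 3D vs. 2D cells, 1 rose and 4 fell on MUC1 silencing, 1 rose and 1 fell of 6 tested with GO-203, and 2 rose and 3 fell on MYC silencing, with medians of 0.42, -0.34, -0.28 and 0.12. The shares called were 71.4%, 71.4%, 33.3% and 71.4%, against the same shares of all genes. AASS, which starts lysine breakdown, fell on MUC1 silencing from 4.72 ± 0.4 to 1.67 ± 0.317 CPM (SD, n = 3; edgeR adjusted p = 1.34e-07), where ALDH7A1 rose. Of the alcohol dehydrogenases, 4 of 8 were tested in 3D vs. 2D cells and all 4 fell, ADH5 from 206 ± 11.6 to 116 ± 6.69 CPM (SD, n = 3; log2 fold change -0.77, SE 0.0608, edgeR adjusted p = 1.3e-08). On MUC1 silencing 1 rose and 2 fell of 4, with GO-203 1 rose of 3, and on MYC silencing 3 rose of 4. The medians of the alcohol dehydrogenases were -1.62, -0.29, 0.51 and 1.12 in these comparisons, from 3D vs. 2D cells to MYC silencing, and the shares called were 100%, 75%, 33.3% and 75%, against 63.7%, 62.2%, 24.1% and 58.5% of all genes tested.

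For the 3 members with the widest range over the groups, the genes with the most similar pattern were sought among 13604 genes, as Pearson's r of the 7 group means of log2 CPM. For ALDH1A1 these were LINC02693 (r = 0.984), SMARCA2 (0.982) and LINC01291 (0.979), for ALDH3A1 SVIL (0.986), PLEKHM1 (0.983) and NBEA (0.976), and for ALDH1A3 EZH1 (0.99), PROS1 (0.988) and FZD3 (0.983). With 7 points, and with the tet-MYCshRNA line setting the range of ALDH1A1 and ALDH3A1, such values are a description.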

How the data were processed

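Total RNA was prepared as TruSeq stranded mRNA libraries and sequenced paired-end by the authors, who aligned the reads to GRCh38 with STAR (2.7.3a in the submitters' processing notes) and deposited raw counts per gene made with featureCounts; which annotation release and strand setting they used, and how multimapped reads were treated, is not given in the sources used here. Empty cells, for 4952 to 7587 genes per library and shared by whole blocks of libraries, were read as 0, since the lowest total of a listed gene in its block was 1 count (GO-203 libraries checked with the 3D libraries); this concerns ALDH1A1 in 9 libraries and ALDH1A2 in 3. Symbols were found for 42252 of 42339 identifiers, and gene positions and lengths came from GENCODE release 44.

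In R 4.3.3, each comparison was fitted on its own 6 libraries, and each difference of effects on 12, with edgeR 4.0.16 (filterByExpr, TMM factors, quasi-likelihood test, Benjamini-Hochberg adjustment over all genes tested, threshold 0.1). The fold threshold was an absolute log2 fold change of 1.5. CPM were scaled over the 21 libraries. Depth was 38026597 to 99751717 counts per library, so that the spread between replicates sets the precision of all but the low members. The script was tested on simulated data.

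The members and the lists (other ALDH genes, retinoid genes, alcohol dehydrogenases, mitochondrial folate, proline and glutamate, and lysine enzymes) were chosen with earlier results of these data known. Besides the members, MUC1 and MYC, a list gene was named where it had the largest rise or fall among those past the threshold with a mean of at least 1 CPM, and all other ALDH genes could be named. The markers were fixed with the design. Alternatives were DESeq2 1.42.0, RLE factors, library size alone, 2 other filters, a single fit of all 21 libraries, a replicate block, other thresholds, tet-MUC1shRNA vehicle as the 3D group, and leaving out each library. The comparisons of vehicle-treated lines and the merged exon length were added after seeing the data. Same-numbered libraries did not deviate together in all pairs (correlation of deviations -0.183 to 0.08), so the numbers were not taken to pair them.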

Additional observations from a re-analysis of the deposited data

Results flagged for a closer look

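The effects of different interventions on the same gene were tested against each other, and the following differences passed an adjusted p of 0.1 (edgeR's quasi-likelihood test of the interaction). Between MUC1 and MYC silencing, the log2 fold change differed by -2.06 for ALDH1A1, -1.65 for ALDH1A3, 1.23 for ALDH1B1, -0.72 for ALDH1L2, -2.52 for ALDH2, -2.73 for ALDH3A1, -1.16 for ALDH3A2, 0.46 for ALDH4A1 and 0.24 for ALDH7A1. Positive values mean a higher log2 fold change on MUC1 silencing. The ALDH4A1 call was lost with the replicate block and in 7 of the 12 fits without a library, and the ALDH7A1 call in 8 of the 12. Between MUC1 silencing and GO-203, it differed by -0.33 for ALDH1B1, -0.83 for ALDH1L2, -1.08 for ALDH2, 0.74 for ALDH3A2, 1.19 for ALDH4A1 and 1.01 for ALDH7A1. ALDH2 moved in opposite directions with the silencing of MUC1 and of MYC, and ALDH7A1 and ALDH1L2 moved in opposite directions with MUC1 silencing and GO-203, each with both changes past the threshold, although the ALDH1L2 change with GO-203 was not called without 3D cells + GO-203 replicate 3. In both comparisons of effects the cells also carry different vectors or none, which cannot be told apart from the intervention. With 3 libraries per group, no library was tested as an outlier.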

How the results depend on the processing

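Of 967 recomputed log2 fold changes or differences of members, 938 kept direction and side of the threshold, 20 were no longer past it, 4 became so and 5 changed sign, all 5 for values not past it. The cause of these changes was not tested. The sign changes were ALDH1A3 on MUC1 silencing (0.10) and against GO-203 (0.002), both with library size alone, which moved the median of all genes on MUC1 silencing from 0.02 to 0.19, and in the vehicle comparisons, added after seeing the data, ALDH4A1 (-0.062 without tet-MUC1shRNA vehicle replicate 2, up to 0.162 without another library) and ALDH3A2 (0.002 with all libraries in a single fit, 0.013 without tet-MUC1shRNA vehicle replicate 3, down to -0.07 without another).

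Numbers of members past the adjusted p stayed within 1.5 times of those given for every alternative run. Past adjusted p and fold, an absolute fold change above 1.5 gave 4 in 3D vs. 2D cells, 5 on MUC1 silencing and 7 on MYC silencing, against 39%, 32.2% and 37.7% of all genes tested, and library size alone gave 1 on MUC1 silencing, ALDH3A1. Leaving out a library gave 2 to 4 in 3D vs. 2D cells (4 without 2D cells replicate 1, with ALDH2 and ALDH3A1) and 0 to 1 on MUC1 silencing (1 without tet-MUC1shRNA vehicle replicate 1 or DOX replicate 3, ALDH3A1). In 3D vs. 2D cells ALDH3A1 met the filter in such fits only through the 3D libraries.

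With the replicate block, ALDH4A1 lost its difference between MUC1 and MYC silencing (0.46, edgeR adjusted p = 0.107) and no other call changed. That difference was also lost without tet-MUC1shRNA vehicle replicate 2 or 3, tet-MUC1shRNA DOX replicate 1 or 2, tet-MYCshRNA vehicle replicate 2 or 3, or tet-MYCshRNA DOX replicate 1 (0.32 to 0.57 over the 12 fits). For ALDH7A1 it was lost without tet-MUC1shRNA vehicle replicate 1 or 3, tet-MUC1shRNA DOX replicate 1 or 2, tet-MYCshRNA vehicle replicate 1 or 2, or tet-MYCshRNA DOX replicate 2 or 3 (0.17 to 0.30). With all 21 libraries in one fit, ALDH1A1 was called on MUC1 silencing (-0.99, edgeR adjusted p = 0.0451), and when vehicle-treated tet-MUC1shRNA mammospheres stood for the 3D cells, ALDH4A1 was called as lower than in 2D cells (-0.69), and the values of ALDH1B1, ALDH7A1 and ALDH1L2 moved to 0.26, -1.25 and -1.25, the last no longer past the fold threshold. ALDH1A1, read as 0 from empty cells in 2D cells and untested against 3D cells, was called as higher there. It met the filter on low counts in that fit only through the tet-MUC1shRNA libraries. Leaving out a library also ended the fold call of ALDH1A3 on MYC silencing (1.44) and of ALDH3A1 between the vehicle lines (1.35 and 1.41), and gave one to ALDH2 in tet-MUC1shRNA vehicle against 3D cells (1.52). Depth limits ALDH1A1 outside the tet-MYCshRNA line, ALDH1A2 everywhere and ALDH3A1 outside the DOX-treated tet-MYCshRNA group.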
